A study of Solenopsis invicta with 3 samples.

Results

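Antennal gene expression was compared between the 2 genotypes of the social supergene that live side by side in polygyne colonies of the red imported fire ant, Solenopsis invicta. The comparison set the library of polygyne SB/Sb workers (P_Bb) against that of polygyne SB/SB workers (P_BB), which is 2 of the 3 libraries of the series, and covered all 19703 gene IDs of the deposited tables. The third library, of monogyne SB/SB workers (M_BB), entered the size factors and an alternative filter. Its values are otherwise only given beside those of the polygyne libraries. SB and Sb are the alternative forms of the social chromosome. Both polygyne groups were medium-sized foragers from colonies with several queens, so all of them carried SB and only P_Bb workers also carried Sb, and the labels name the same 4 colonies for both. Antennae were pooled within a genotype before 1 library was made from each, so each class had no replicate. The labels name 4 colonies for a pool while the design text says that 3 of 4 bioreplicates were mixed, and which was left out is not given.

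A supergene is a stretch of chromosome in which recombination is suppressed, so that many genes are inherited together. In fire ants it is tied to colony social form: polygyne colonies, which hold Sb carriers, accept several queens, and SB/Sb workers are known to discriminate against queens that lack Sb. The antenna is the main olfactory organ of the ant, where odorant-binding proteins carry molecules through the lymph of the sensillum to odorant receptors on the sensory neurons. Transposable elements, sequences that encode the proteins for their own copying or movement, are known to gather where recombination is suppressed.

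The summed expected counts, RSEM's estimate of the reads of each gene, were 1310209 in P_Bb and 1800106 in P_BB. A count above 0 was found for 13011 genes in P_Bb and 13507 in P_BB. IDs beginning with SiOR, which are odorant receptor sequences and so mark the antenna, had a count above 0 for 431 of 473 IDs in P_Bb and 439 in P_BB. Counts were divided by upper-quartile size factors of 0.841 for P_Bb and 1.12 for P_BB, and the quotients are the normalized counts given below. The 8347 genes that averaged 10 or more normalized counts over both libraries were compared. Of these, 5938 had IDs of the official gene set (SINVm1_gene), 2228 were XLOC IDs of added antennal transcripts and 181 were SiOR IDs. Ratios are log2 ratios of P_Bb to P_BB with a pseudocount of 0.5, which understates the difference of low genes. Each has a 95% interval for counting error alone, here the counting interval. Differences are between 2 libraries, with no test between genotypes. In whole antennae, fewer cells of a type and less RNA per cell cannot be told apart.

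The polygyne libraries were close for most genes. At least 2-fold differences were seen for 233 of the 8347 genes (2.79%), with 120 higher in P_Bb (1.44%) and 113 lower (1.35%). The counting interval excluded 0 for 829 genes (9.93%), 442 of them higher (5.30%) and 387 lower (4.64%), where 5% is the share that counting error alone would place outside such intervals. The interval lay wholly beyond 2-fold for 10 genes higher in P_Bb and for 1 gene lower. The median log2 ratio over all compared genes was 0.01 and its SD over genes 0.41, while counting error gave 0.36. The genes just inside and just outside the 2-fold threshold had log2 ratios of 1.001 and 0.997 when higher and of -1.001 and -0.999 when lower.

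**Figure D1:**
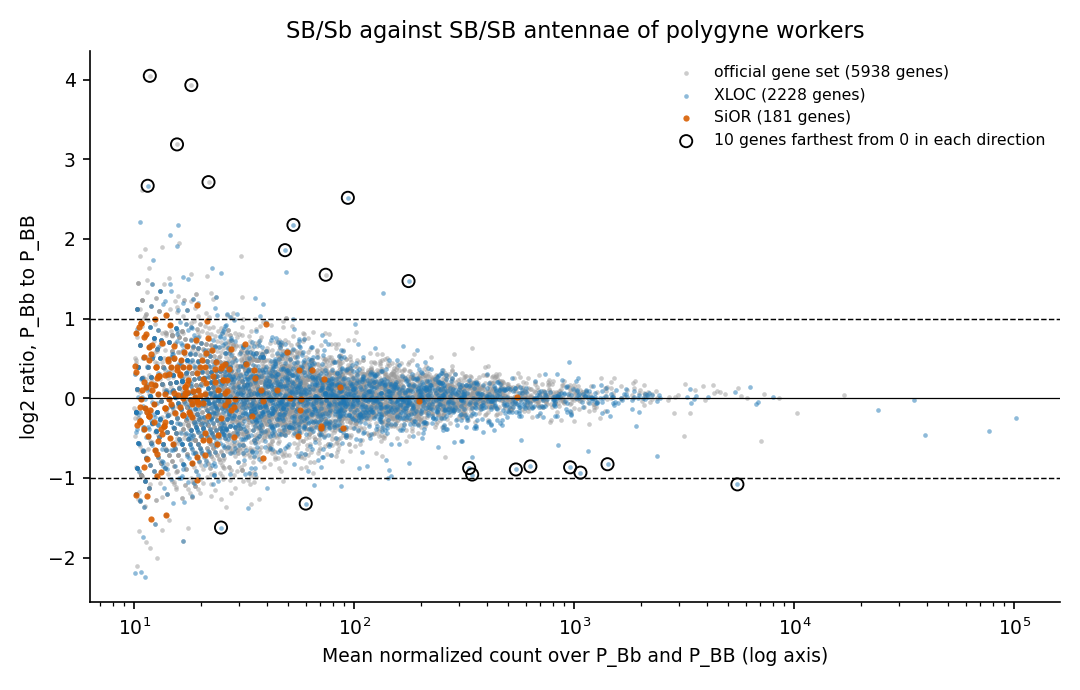
Each point is 1 of the 8347 compared genes, with its mean normalized count over P_Bb and P_BB on a log axis and its log2 ratio of P_Bb to P_BB, coloured by ID class. Circles mark the 10 genes in each direction whose counting interval lies farthest from 0, and dashed lines mark 2-fold. The circled higher genes have mean counts of 11.5 to 176, while the circled lower genes reach 5509 and are all XLOC.

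Genes were ranked by the end of their counting interval nearer to 0, and the ends of this ranking differed in ID class, length and abundance. The 10 ranked first as higher in P_Bb were 5 official genes and 5 XLOC genes, with a median length of 1513 bases and a median mean count of 35.0. The 10 ranked first as lower were all XLOC genes, with a median length of 5038 bases and a median mean count of 587. Among the first 50, 26 official and 24 XLOC genes were higher, and 16 official and 34 XLOC genes were lower. Of all compared genes 71.1% were official and 26.7% XLOC. No SiOR gene was among the first 50 in either direction. SiOR genes were only 2.17% of the compared genes, and 118 of the 181 had means of 10 to 20 counts. Their absence there is thus no result about receptors. The higher genes had the larger ratios, 2.77-fold to 16.5-fold in the first 10, whereas the first 10 lower genes were 1.77-fold to 3.08-fold lower.

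SINVm1_gene_10405, whose predicted protein has no stated function, ranked first as higher, with 29 counts in P_Bb against 2 in P_BB, beside 1 in M_BB. The plain ratio of P_Bb to P_BB was 19.2, with an exact 95% counting interval of 4.87 to 166. SINVm1_gene_02111 (SiOBP12), which encodes an odorant-binding protein and lies in the supergene, came after XLOC_044145 in rank, with 19 counts in P_Bb against 1 in P_BB, beside 1 in M_BB. Its plain ratio was 25.2 (exact interval 4.01 to 1048). The study describes a paralog of SiOBP12 that is specific to Sb. In its own antennal libraries of SB/Sb workers it assigned nearly all reads at this locus to the paralog. The count given here does not separate reads of the paralog from those of the gene. For both genes nearly all counts of the polygyne pair were thus in P_Bb, and the upper limit of the ratio is loose because P_BB had so few.

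SINVm1_gene_00322, with a predicted protein of unstated function, had 24 counts in P_Bb against 3 in P_BB, beside 4 in M_BB, a plain ratio of 10.6 (exact interval 3.22 to 55.1). Its neighbour by number, SINVm1_gene_00321, an uncharacterized protein, had 16 counts in P_Bb against 3 in P_BB, beside 0 in M_BB, a ratio of 7.08 (2.03 to 37.9). The 2 IDs were thus high in the same library. Both come from the study's list of genes higher in SB/Sb, as do XLOC_036812 and XLOC_000345 below, so these pairs are a description. XLOC_036811, for which no function is annotated, had 17 counts in P_Bb against 3.08 in P_BB, beside 5 in M_BB (ratio 7.32, exact interval on rounded counts 2.18 to 40.1). XLOC_036812, the next number and an uncharacterized protein, had 22, 6 and 4 counts and a log2 ratio of 2.18 (0.92 to 3.44). Another such pair was XLOC_000345, an uncharacterized protein with 62, 27 and 26 counts and a log2 ratio of 1.59 (0.94 to 2.23) that was 0.70 with the deposited TPM, and XLOC_000346, with 14, 2 and 6 counts. XLOC_000346 fell short of the minimum count and was named after its values were seen.

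Among the higher genes with more counts, the uncharacterized XLOC_044145 had the largest ratio. It had 159 normalized counts in P_Bb against 27.4 in P_BB, beside 11.3 in M_BB, a log2 ratio of 2.52 (1.95 to 3.08). The uncharacterized XLOC_023347 had 259 normalized counts in P_Bb against 93.2 in P_BB, beside 57.2 in M_BB, and its log2 ratio was 1.47 (1.14 to 1.81). The uncharacterized XLOC_001337 had 76.1, 20.6 and 28.2, a log2 ratio of 1.86 (1.18 to 2.54). In all 3, P_Bb was the highest library of the series, and the order of P_BB and M_BB varied.

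Of the 10 genes ranked first as higher, 2 are annotated as transposable elements. SINVm1_gene_00166, which encodes a protein with a transposase domain (transposases cut and move DNA elements), had 38.1 normalized counts in P_Bb against 5.38 in P_BB, beside 2.81 in M_BB, a log2 ratio of 2.71 (1.50 to 3.93). XLOC_000229, annotated as Gypsy 19, had 86.8, 18.8 and 9.38, a log2 ratio of 2.18 (1.48 to 2.87). Gypsy elements are retrotransposons, which copy themselves through RNA.

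SINVm1_gene_10898, for which no function is annotated, had 111 normalized counts in P_Bb against 37.4 in P_BB, beside 0 in M_BB. Its deposited posterior mean in M_BB was 36.6 counts, so that 0 cannot be read as absence. Its log2 ratio of 1.55 had a counting interval of 1.03 to 2.08, but its reads fit several genes: the deposited posterior SD, the spread over the possible assignments of its reads, was 45.3 counts in P_Bb, and with that variance added the interval was -1.32 to 4.42, and posterior mean counts gave a log2 ratio of 0.91. XLOC_018688, the fifth gene by ratio among those with a mean of at least 50, had 192.5 and 76.9 normalized counts and a log2 ratio of 1.32. Posterior mean counts moved it the other way, to 1.81, and with the posterior variance its interval was -0.17 to 2.80. For both genes a difference was therefore not detectable once read assignment was counted.

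The lower end was led by XLOC_034085, the only gene whose interval lay wholly beyond 2-fold lower. It had 3537 normalized counts in P_Bb against 7481 in P_BB, beside 4219 in M_BB, a log2 ratio of -1.08 (-1.14 to -1.02). The next was XLOC_040838, an uncharacterized protein, with 732 in P_Bb against 1399 in P_BB, beside 1021 in M_BB (log2 ratio -0.93, interval -1.07 to -0.80). XLOC_039690 had 677, 1235 and 736 (-0.87, interval -1.01 to -0.73). In these 3 genes P_BB was the highest library and P_Bb the lowest, with M_BB between them.

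XLOC_034075 had 34.1 normalized counts in P_Bb against 86.0 in P_BB, beside 52.0 in M_BB, a log2 ratio of -1.32 (-1.92 to -0.72). XLOC_042975 had 233, 453 and 399 (-0.96, interval -1.19 to -0.72), and XLOC_044414 had 1020, 1810 and 1035 (-0.83, interval -0.94 to -0.71). XLOC_040839 had 449, 813 and 552 (-0.85, interval -1.03 to -0.68), XLOC_002084 had 234, 430 and 325 (-0.88, interval -1.11 to -0.64), and the scarcer XLOC_002843 had 11.9, 37.6 and 24.0 (-1.62, interval -2.60 to -0.65). M_BB again lay between the polygyne libraries in each of these 6. XLOC_042083, the remaining gene of the 10, was highest in M_BB, with 379 in P_Bb against 705 in P_BB, beside 782 in M_BB. Its counting interval was -1.08 to -0.71 and reached -1.94 to 0.15 with the posterior variance. The posterior SDs of XLOC_042083 nearly equalled those of XLOC_042090, a gene higher in P_Bb, in each library. Only XLOC_040838 of these 10 has an annotation in the study's table, so no function is given for the others.

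The next genes by size with a mean of at least 50 were also XLOC. XLOC_034101 had 54.9 normalized counts in P_Bb and 119 in P_BB (log2 ratio -1.11, interval -1.59 to -0.63). XLOC_040843 had 41.6 and 88.7 (-1.08, interval -1.64 to -0.53), and XLOC_043350 had 94.0 and 189 (-1.01, interval -1.38 to -0.63). The 3 official genes ranked first as lower were scarce in both libraries. SINVm1_gene_11817 had 6 counts in P_Bb and 29 in P_BB (-1.79, interval -3.02 to -0.57). SINVm1_gene_12200 had 4 and 23 (-2.01, interval -3.46 to -0.55), and SINVm1_gene_01800 had 16 and 54 (-1.32, interval -2.12 to -0.53). None of the 3 is annotated here.

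Several of the lower XLOC genes had numbers close to each other. These 2 runs of numbers were picked out after their values were seen, so their shares are a description of that choice. In the first run, of 9 compared IDs from XLOC_034070 to XLOC_034104, 8 log2 ratios were below 0 and 6 intervals excluded 0, all as lower, beside 4.64% of all compared genes and 7.36% of compared XLOC genes with an interval below 0. The run summed to 5982 normalized counts in P_Bb against 11318 in P_BB, beside 6687 in M_BB, and most of these were from XLOC_034085. XLOC_034078 had 1789, 2952 and 1802 (log2 ratio -0.72, interval -0.81 to -0.63), and XLOC_034094, the exception, had 297, 255 and 202 (0.22, interval -0.03 to 0.46). In the second run, of 12 IDs from XLOC_040816 to XLOC_040846, 9 ratios were below 0 and 6 intervals excluded 0, again all as lower, beside the same 4.64% and 7.36%. Its sums were 3255 in P_Bb against 4487 in P_BB, beside 3477 in M_BB. XLOC_040838, XLOC_040839, XLOC_040840, XLOC_040842 and XLOC_040843 had log2 ratios between -1.08 and -0.85. XLOC_040841, which lies among these numbers, was at -0.06 (-1.19 to 1.06), and XLOC_040825 was at 0.35 (-0.11 to 0.81). The most abundant ID of the run, XLOC_040846, had 1317 and 1309 normalized counts and a ratio of 0.01 (-0.10 to 0.12).

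**Figure D2:**
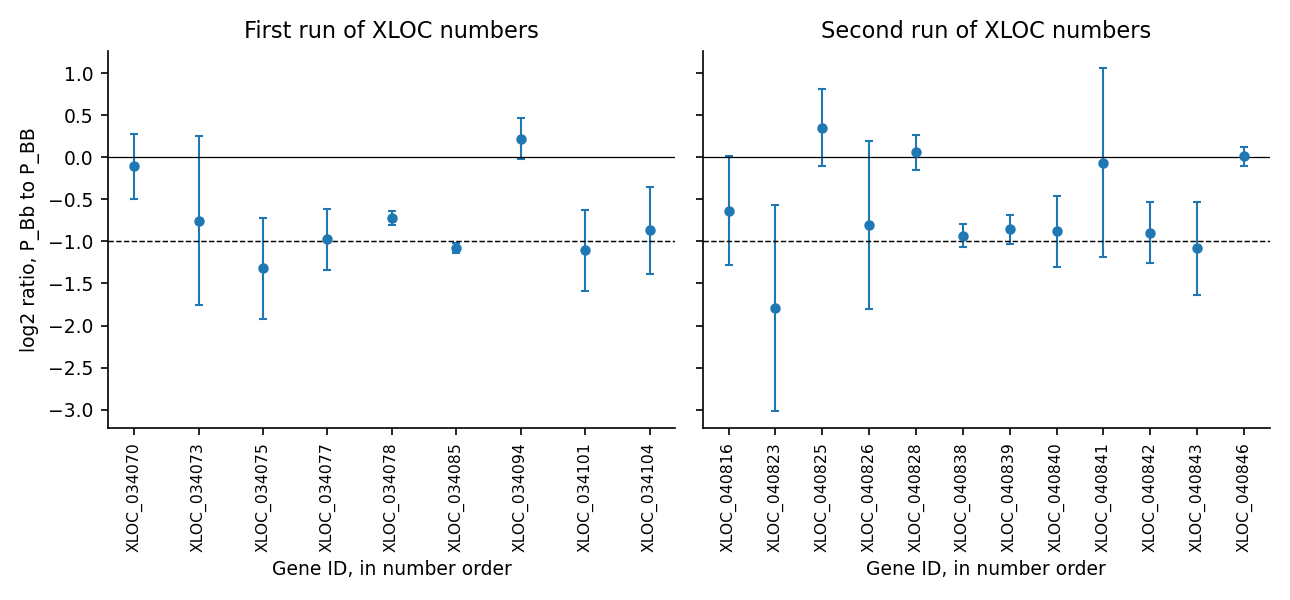
Points are the log2 ratios of P_Bb to P_BB of the compared XLOC genes in the 2 runs of ID numbers, in number order, with 95% counting-error intervals as bars and a dashed line at 2-fold lower. In the first run 8 of 9 points lie below 0, and in the second 9 of 12, with XLOC_040828, XLOC_040841 and XLOC_040846 at about 0.

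Across all pairs of compared XLOC genes with consecutive numbers, Pearson's r of their log2 ratios was 0.25 over 362 pairs and 0.34 over the 154 pairs with a mean of at least 50. Spearman's rho, which weighs large ratios less, was 0.13 and 0.09. Over 2886 pairs of consecutive official genes r was 0.02. Both members were lower with intervals that excluded 0 in 11 XLOC pairs, both higher in 4, and 5 pairs were opposite. Among official genes 5 pairs were both lower, 4 both higher and 11 opposite. Points share genes and both libraries, and reads that fit 2 overlapping transcripts may be divided between them, so these values carry no test. No coordinates of the XLOC genes were used here, and whether consecutive numbers are neighbours on a chromosome was not tested.

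By ID class, the 2-fold genes divided nearly as the compared genes did. Of the 5938 official genes, 77 were at least 2-fold higher and 75 lower in P_Bb (2.56% in all). Of the 2228 XLOC genes, 40 were higher and 33 lower (3.28%), and of the 181 SiOR genes, 3 were higher and 5 lower (4.42%). These shares stand beside the 2.79% of all compared genes. The counting interval excluded 0 for 305 higher and 219 lower official genes (8.82%), for 133 higher and 164 lower XLOC genes (13.3%), and for 4 higher and 4 lower SiOR genes (4.42%). XLOC genes thus made up 26.7% of the compared genes, 30.1% of those with an interval above 0 and 42.4% of those with an interval below 0. The SD of the log2 ratio exceeded that from counting error for official genes (0.39 against 0.36) and XLOC genes (0.43 against 0.34), but not for SiOR genes (0.49 against 0.51).

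By expression level, 2-fold differences lay almost wholly among genes with few counts. Between 10 and 20 mean normalized counts, 87 genes were at least 2-fold higher and 86 lower of 1779. Between 20 and 50 there were 28 and 22 of 2356, between 50 and 100 there were 3 and 3 of 1614, and between 100 and 500 there were 2 and 1 of 2109. At 500 and above, 1 gene of 489 was lower, XLOC_034085, and 0 were higher. The share of genes with an interval that excluded 0 ran the other way. It was 6.01% in the lowest level, 7.39%, 10.04% and 12.7% in the next 3, and 24.3% at 500 and above, where the SD of the log2 ratio was 0.17 and counting error gave 0.07. In the lowest level the SDs were 0.63 and 0.56. Of the 173 genes at least 2-fold apart in the lowest level, 104 had an interval that excluded 0. With 1 library per genotype, spread between pools of the same genotype cannot be told apart from a genotype difference.

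**Figure D3:**
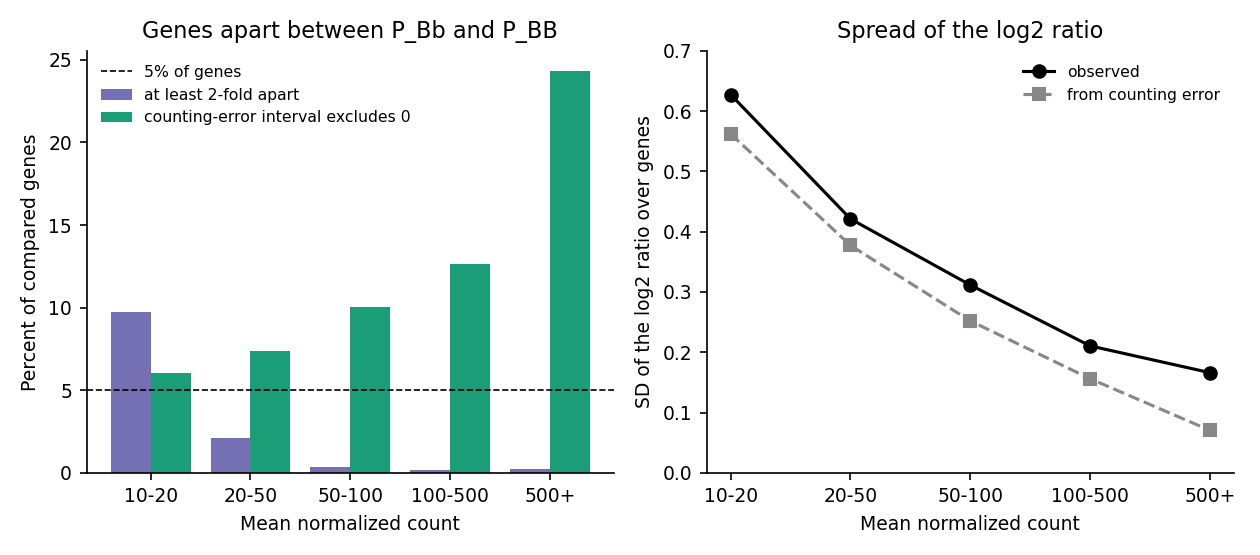
Left, percent of compared genes in 5 levels of mean normalized count that differed at least 2-fold or whose 95% counting-error interval excluded 0, with a dashed line at 5%; right, SD of the log2 ratio over genes, observed and from counting error. The 2-fold share falls from 9.72% to 0.204% while the interval share rises from 6.01% to 24.3%.

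Abundant genes of the 2 main ID classes differed in their direction. Among genes with a mean of at least 100, intervals excluded 0 for 149 higher and 78 lower of 1785 official genes, and for 52 higher and 107 lower of 811 XLOC genes. The higher genes were thus 65.6% of the official and 32.7% of the XLOC genes so called. The split depended on the scaling of the libraries. It was 55.8% and 24.7% with median-of-ratios size factors, 50.2% and 20.8% with TMM, 85.5% and 55.0% with total counts, and 87.5% and 61.9% with TPM. The order of the classes was the same under all 5 scalings, while the direction of the official genes was even with TMM and that of the XLOC genes turned with total counts and TPM. Over all compared genes the intervals above and below 0 numbered 442 and 387 here, 368 and 446 with median-of-ratios size factors, 338 and 474 with TMM, 651 and 270 with total counts, and 748 and 262 with TPM. The 5 most abundant genes, all XLOC, took 16.02% of the P_Bb counts, 18.8% of the P_BB counts and 11.4% of the M_BB counts. XLOC IDs as a whole took 44.1%, 46.7% and 38.9%, respectively. The part of these shares in the split was not tested.

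**Figure D4:**
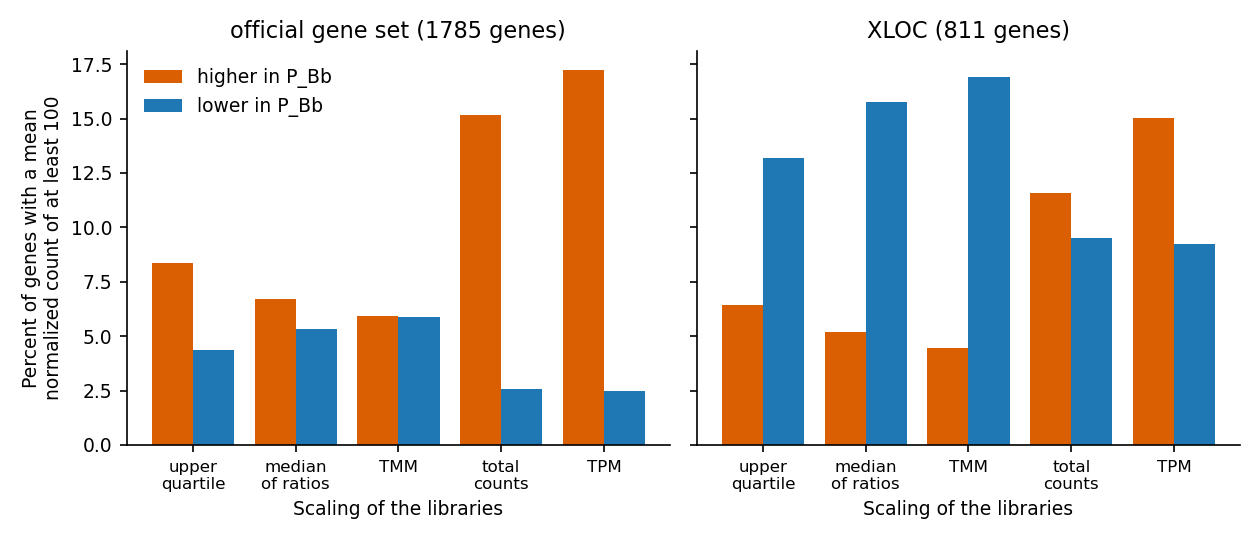
Bars give the percent of genes averaging 100 or more normalized counts whose counting-error interval lies above 0 (higher in P_Bb) or below 0 (lower) under 5 scalings, for 1785 official and 811 XLOC genes. The higher genes outnumber the lower ones among official genes under 4 scalings and are about level with TMM (106 and 105), while XLOC genes show more lower than higher under 3 scalings and fewer under total counts and TPM.

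Single abundant genes differed by less. Those named here were chosen after their values were seen. At 500 counts and above the official genes ranged in log2 ratio from -0.53 to 0.32 and the XLOC genes from -1.08 to 0.46. SINVm1_gene_10534 had 5735 normalized counts in P_Bb against 8305 in P_BB, beside 2407 in M_BB (-0.53, interval -0.58 to -0.48). SINVm1_gene_13986 had 615, 494 and 539 (0.32, interval 0.14 to 0.49). XLOC_043981 and XLOC_043984, the most abundant pair, had log2 ratios of -0.24 and -0.42 and were below 0 under all 5 scalings. XLOC_042090 had 1098 and 798 normalized counts (0.46, interval 0.33 to 0.59, or 0.02 to 0.90 with the posterior variance), but its reads were shared with other genes. Its posterior SDs, 112 counts in P_Bb and 73.1 in P_BB, nearly equalled those of XLOC_042083, which was lower in P_Bb. Whether these IDs share reads with each other was not tested, so their ratios are not taken as separate differences.

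Odorant receptors bind odorants at the sensory neuron and set which odours it answers. The 181 compared SiOR genes had a median log2 ratio of 0.07 and ranged from -1.51 to 1.18, and 118 of them had a mean of 10 to 20 counts. There were 5 with ratios at least 2-fold lower. SiOR21 had 6 counts in P_Bb against 23 in P_BB, beside 12 in M_BB (-1.47, interval -2.72 to -0.21), and SiOR214 had 5, 20 and 11 (-1.51, interval -2.87 to -0.16). SiOR50 had 10.5, 29 and 12 counts (-1.03, interval -2.03 to -0.03). The intervals of SiOR391 (-2.55 to 0.10) and SiOR276 (-2.60 to 0.18) held 0. In SiOR21 and SiOR214 P_Bb was the lowest library, and in SiOR50 P_Bb and M_BB lay close together.

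At least 2-fold higher were SiOR422, with 22.6 counts in P_Bb against 12.95 in P_BB, beside 14.2 in M_BB (1.18, interval 0.21 to 2.15), SiOR402, with an interval of -0.07 to 2.16, and SiOR12, with -0.18 to 2.18. SiOR168 (44.03, 30.4 and 32 counts) and SiOR390 (24, 16 and 27.2) were less than 2-fold higher, at 0.93 (0.27 to 1.59) and 0.97 (0.07 to 1.87). SiOR124 had 28.6, 48.4 and 24.4 normalized counts (-0.75, interval -1.44 to -0.06). The share of SiOR intervals that excluded 0, 4.42%, was under the 9.93% of all compared genes, at lower counts. The 2 most abundant receptor IDs were close in both libraries. SiOR1_co had 551 and 544 normalized counts (0.02, interval -0.16 to 0.19, or -0.80 to 0.83 with the posterior variance), and SiOR473 had 194 and 199 (-0.04, interval -0.33 to 0.25).

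XLOC_016888, which the study names SiOR463, is an odorant receptor of the supergene. It had 14.3 normalized counts in P_Bb against 21.5 in P_BB, beside 12.1 in M_BB, which was the lowest. The counts before scaling were 12, 24.0 and 12.9. The log2 ratio of P_Bb to P_BB was -0.58 with an interval of -1.56 to 0.41. A difference was not detectable at this depth, and the interval held -1. The study reports that SiOR463 is deleted in the Sb genome, and an effect of gene dose was not tested here. A separate ID spelled SiOR463 had 6, 8 and 11 counts, with a plain ratio of 0.995 between the polygyne libraries (exact interval 0.285 to 3.27). Whether both IDs mean one receptor cannot be said from the tables. The receptors beside it, SiOR163 and SiOR462 (SINVm1_gene_13698), were at or under 3 counts in each library.

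The study assigned 38 genes to genotype or to all 3 worker classes from other libraries, of RNA at least partly from the same workers, so their direction here is not independent evidence. Of 33 such genes given as higher in SB/Sb, 26 reached the minimum count. Of these, 19 were at least 2-fold higher in P_Bb and 22 had an interval above 0, beside 1.44% and 5.30% of all compared genes, and 0 were lower by either rule. Their median log2 ratio was 1.53, against 0.01 over all compared genes. Scarce genes that reached the minimum through P_Bb alone had to be higher there, so the counts are a description. The rest were below it: SINVm1_gene_05144 (13 counts in P_Bb and 2 in P_BB), SINVm1_gene_00401 and SINVm1_gene_05175 (7 and 0 each), XLOC_000568 (6 and 1), SINVm1_gene_00935 (5.25 and 2), SINVm1_gene_09757 (3 and 1) and SINVm1_gene_09325 (2 and 0). The 10 genes ranked first as higher in P_Bb held 8 of the 38 genes and the first 20 held 14, while the first 20 lower genes held 1, XLOC_040838. Of the 8347 compared genes 31 are on this list, 26 of them given as higher in SB/Sb and 5 as higher in SB/SB. The list thus offers fewer genes to the lower end of the ranking. Of 38 compared genes that the study assigned to social form, 0 were at least 2-fold higher and 1 lower, and 4 intervals lay above 0 and 1 below. Intervals that excluded 0 were 13.2% of these genes, beside 9.93% of all compared genes. The study's pattern for this list sets M_BB apart from both polygyne classes. Small differences between P_Bb and P_BB are thus part of that choice and no independent evidence either.

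**Figure D5:**
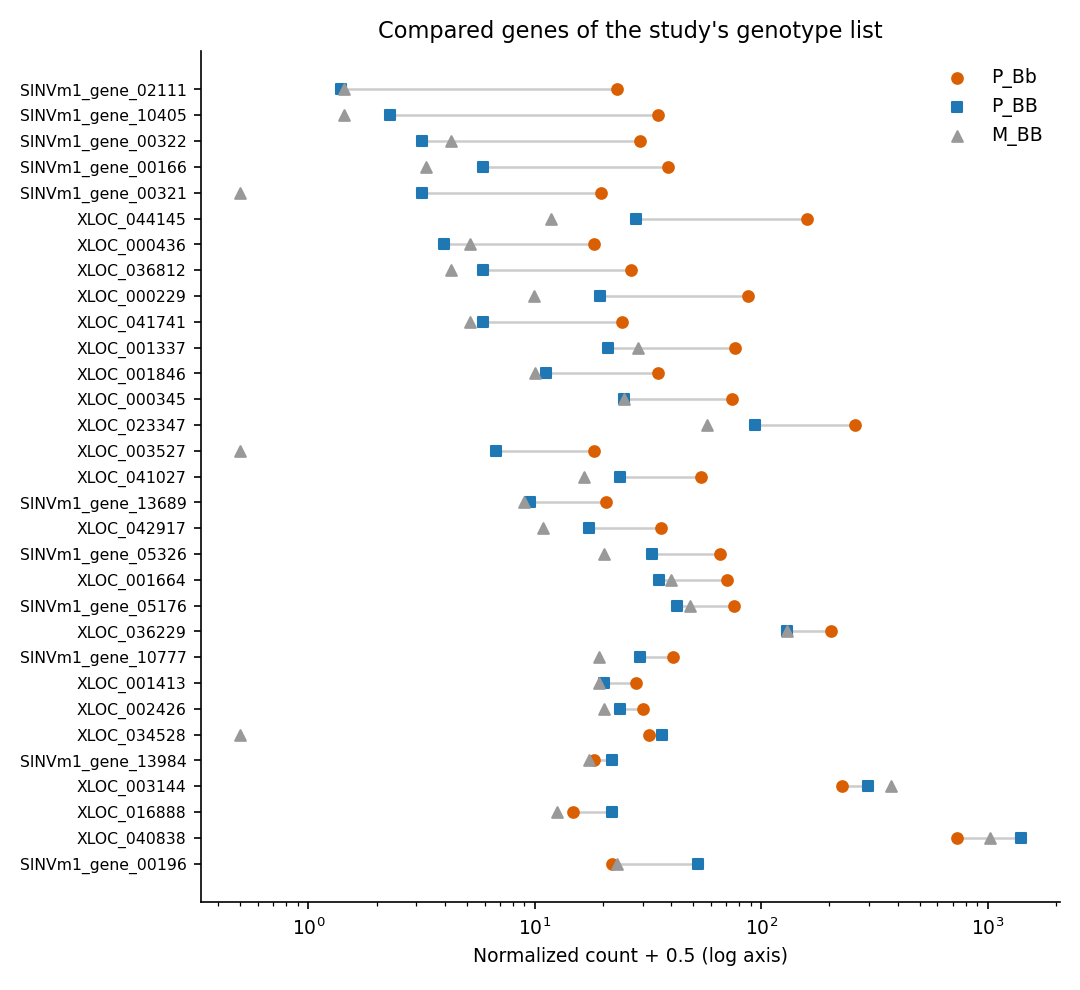
Normalized counts plus 0.5 on a log axis of the 31 compared genes that the study assigned to genotype or to all classes, in P_Bb (circles), P_BB (squares) and M_BB (triangles), ordered by the log2 ratio of P_Bb to P_BB, with a line joining the polygyne libraries. P_Bb lies to the right of P_BB in 25 genes, by most in SINVm1_gene_02111 with 22.6 against 0.896 normalized counts. M_BB is listed at 0 for SINVm1_gene_00321, XLOC_003527 and XLOC_034528. For XLOC_034528 the posterior mean in M_BB was 32.4 counts, so its 0 cannot be read as absence.

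Of these genes 10 are annotated as transposable elements and 8 reached the minimum. By the 2-fold rule 4 were higher and 1 lower, and by the interval 5 were higher and 2 lower, beside 1.44% and 1.35% of all compared genes by the 2-fold rule and 5.30% and 4.64% by the interval. These elements come from a list that the study had chosen for genotype differences, so their counts are a description. Beside SINVm1_gene_00166 and XLOC_000229, the retrotransposons L2-1 (XLOC_001846, 34.5, 10.8 and 9.52 normalized counts in P_Bb, P_BB and M_BB) and Copia 12 (XLOC_042917, 35.7, 16.9 and 10.3) had log2 ratios of 1.64 (0.68 to 2.59) and 1.06 (0.24 to 1.88). XLOC_001664, which encodes a Pol protein (the polyprotein with the reverse transcriptase), had 70.2, 35.0 and 39.6 (0.995, interval 0.41 to 1.58). The lower ones were SINVm1_gene_00196, a harbi1-like nuclease, with 21.4, 52.0 and 22.5 (-1.26, interval -2.01 to -0.51), and XLOC_003144, a tc1 transposase, with 227, 297 and 372 (-0.39, interval -0.64 to -0.13). SINVm1_gene_10777, another harbi1-like nuclease, had 40.1 and 28.6 and an interval of -0.21 to 1.17. The elements thus lay on both sides of 0. Both IDs annotated as virus proteins had intervals above 0, beside 5.30% of all compared genes. The study's genotype list gives both as higher in SB/Sb, so their direction here is no independent evidence. XLOC_000436, a lambda-type exonuclease, had 15, 3.87 and 5 counts (2.21, interval 0.68 to 3.74), and XLOC_036229 had 204, 129 and 129 normalized counts (0.66, interval 0.34 to 0.97).

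The study placed 7 of its genes in the supergene on linkage group 16. SINVm1_gene_05326, an uncharacterized protein, had 65.4 normalized counts in P_Bb and 32.3 in P_BB (1.01, interval 0.41 to 1.61). SINVm1_gene_05176, a phosphatase with a ubiquitin-like domain, had 74.9 and 42.1 (0.82, interval 0.28 to 1.37). Its neighbour by number SINVm1_gene_05175, an NADH dehydrogenase, had 7 counts in P_Bb and 0 in P_BB, which against a floor of 3 counts is at least 3.10-fold higher if the 7 are taken as exact. The coiled-coil protein SINVm1_gene_05144 had a plain ratio of 8.63 (exact interval 1.95 to 78.7). SINVm1_gene_13984, a tyrosine-protein kinase receptor, had 17.8 and 21.5 (-0.26, interval -1.18 to 0.65). With SiOBP12 and XLOC_016888 these are all 7. Their ratios therefore spread from below 0 to that of SiOBP12, and 5 reached the minimum count.

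Other genes given as higher in SB/Sb include XLOC_041741, a BEN domain protein (a domain that binds DNA or chromatin), with 23.8, 5.38 and 4.69 normalized counts in P_Bb, P_BB and M_BB (2.05, interval 0.77 to 3.32). XLOC_003527, with epidermal growth factor-like domains, had 17.8, 6.27 and 0 (1.44, interval 0.18 to 2.69). SINVm1_gene_00401, a probable cytochrome P450, an enzyme family that oxidizes small molecules, had 7, 0 and 1 counts. A further 4 uncharacterized genes had smaller ratios: XLOC_041027 at 1.18 (0.49 to 1.87), SINVm1_gene_13689 at 1.12 (0.01 to 2.22), XLOC_001413 at 0.46 (-0.37 to 1.296) and XLOC_002426 at 0.34 (-0.45 to 1.12). The uncharacterized XLOC_034528, given as higher in SB/SB, had 31.4 and 36.0 (-0.19, interval -0.90 to 0.51) and changed sign to 0.53 with the posterior mean counts.

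Genes near absent from 1 polygyne library were those with at most 3 expected counts there and at least 15 normalized counts in the other. There were 13. From P_BB 6 were near absent, which were SiOBP12, SINVm1_gene_10405, SINVm1_gene_00321, SINVm1_gene_00322, SINVm1_gene_05144 and XLOC_000346, and 5 of these are in the study's genotype list. The list holds 38 of the 19703 gene IDs, with 33 given as higher in SB/Sb and 5 as higher in SB/SB. From P_Bb, for which the list offers few genes, 7 were near absent, with 0 in that list. Of these XLOC_042745 had 3 counts in P_Bb and 21 in P_BB (plain ratio of P_BB to P_Bb 5.27, exact interval 1.57 to 27.6), XLOC_002466 had 1.5 and 18.1 (9.09, interval on rounded counts 1.62 to 60.3), and SINVm1_gene_01271 had 3 and 19 (4.77, interval 1.40 to 25.2). XLOC_001795, XLOC_040322 and XLOC_009740 had 3, 2.78 and 3 counts in P_Bb and 20, 18.8 and 17 in P_BB. With XLOC_042745 and SINVm1_gene_01271 they had 3.31 to 3.57 normalized counts in P_Bb, above the 2.69 that the limit meant in P_BB. SINVm1_gene_00897 had expected counts of 0 and 21.95 but posterior means of 12.98 and 30.1, so its absence from P_Bb cannot be read from the expected counts. All 7 were chosen by this rule and named after their values were seen, and no function is annotated for them.

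Genes with similar sequence, overlapping genes and antisense genes are uncertain throughout, since reads were given equal probability on both strands. Of the compared genes, 86 (1.03%) had summed posterior SDs over 10% of their polygyne counts. These were 10 of the 442 genes with an interval above 0 and 6 of the 387 with one below, and with the posterior variance added, an alternative chosen after seeing the data, 425 and 372 intervals still excluded 0.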

How the data were processed

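PolyA-selected antennal RNA of pooled workers gave 1 amplified paired-end library per class (SMARTer stranded chemistry). The authors mapped reads with Bowtie onto a transcript set of official genes, added antennal transcripts and SiOR sequences, and deposited RSEM expected counts, estimated counts that need not be whole, with posterior mean counts, their SD and TPM values. Deposited EBSeq posterior probabilities and transcript models, whose locus numbers differ, were not used. Gp-9 was not analysed here.

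Size factors were the 75th percentile over 14847 genes with a count in any of the 3 libraries. Genes with a mean of at least 10 normalized counts were compared with a pseudocount of 0.5. Intervals use the Poisson variance of both counts. Ratios with 1 to 3 counts use exact (Clopper-Pearson) intervals, and a library at 0 was set at a floor of 3 counts. As no molecular identifiers mark the amplified reads, all intervals and floors describe counting error alone. With 1 library a side no test was run across genotypes. The procedure was tested on simulated data.

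Genes were named by rule: the 10 intervals farthest from 0 in each direction, the 3 of each ID class, the 5 largest ratios at a mean of at least 50, and the study's genotype and supergene genes with SiOR462 and SiOR163. Others were chosen after their values were seen. Members and lists were chosen with earlier results of these data known. Functions are those of the study's table of 81 genes, all found by ID. None of the 19703 IDs matched the RefSeq gene table (UNIL_Sinv_3.0). Alternatives were other scalings, count minimums, pseudocounts, thresholds and posterior mean counts, run in Python 3.11.15 with numpy 2.4.6, pandas 2.3.3 and scipy 1.17.1, and TMM in edgeR 4.0.16 (R 4.3.3) on rounded counts.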

Additional observations from a re-analysis of the deposited data

Results flagged for a closer look

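The posterior mean counts, which the comparisons above do not use, gave a signal above 3 counts for 15 genes that are listed with an expected count of 0 in P_Bb or P_BB, which is more than a count of 0 allows. There were 11 such genes in P_Bb and 8 in P_BB, 9 were at 0 in both, and 0 were among the compared genes. The highest posterior means were 12.98 counts in P_Bb, for SINVm1_gene_00897, and 9.59 in P_BB, for SINVm1_gene_02175. The receptor SiOR280 had expected counts of 0 in P_Bb and 13 in P_BB but posterior means of 4.42 and 9.22, so an absence from P_Bb cannot be read for it either.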

How the results depend on the processing

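No paired analysis was possible because each genotype had 1 library, and for the same reason no replicate could be left out. Of 606 values of 101 compared named genes under 6 alternatives, 581 stayed inside the counting interval of the ratio given above. The other 25 left it, and 0 called values turned. For scarce genes this interval is wide and allows large shifts. With a pseudocount of 5 the log2 ratio of SINVm1_gene_10405 fell from 3.93 to 2.54 inside its interval. That of SINVm1_gene_02111 (SiOBP12) fell from 4.05 to 2.23 inside its interval. Counts of 2-fold genes moved most with the filter. A minimum of 1 count gave 1795 genes (official 1314, XLOC 378, SiOR 103), and a minimum of 100 gave 4 (official 0, XLOC 4, SiOR 0) with 386 intervals that excluded 0. A pseudocount of 5, which shrinks scarce genes, gave 79 (official 40, XLOC 37, SiOR 2), with 47 at 10 to 20 counts and 23 at 20 to 50. A 4-fold threshold gave 16 (official 7, XLOC 9, SiOR 0), which were 13, 1, 2, 0 and 0 over the 5 levels. Requiring 2-fold and an interval that excludes 0 gave 164 (official 101, SiOR 4, and 104 at 10 to 20 counts). TPM gave 11 genes at 50 to 100 counts and 6 at 100 to 500, and posterior mean counts gave 1 at 100 to 500. Of the list of genes higher in SB/Sb, 1 was 2-fold at a minimum of 100 and 10 at 4-fold. Of the social form list, 0 were apart with total counts, the minimum of 100, the 3-library mean, the pseudocount, the 4-fold threshold or the combined rule, and 2 at the minimum of 1. With at least 30 counts in the other library 1 gene was near absent. A fold threshold gives no value for the interval count, and a minimum none for the levels. Depth limits ratios of genes under 50 counts, and pools of the same genotype were not compared.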
